A study of Mus musculus with 4 samples.

Results

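The genes described here encode Polycomb subunits and enzymes that write or erase marks on histones. They were taken by name from the rows of the count table, and all 56 listed genes were found among its 52636 gene lines. Transcripts of mouse Hoxb8 cells, a line that takes its name from a homeobox gene, were counted with a 3′ tag protocol (QuantSeq) that yields reads near the end of each polyadenylated transcript. The groups were cells expressing an empty vector (EV, 2 libraries) and cells expressing DNMT3AR882H (R882H, 2 libraries), a variant of DNMT3A, which sets new DNA methylation, found recurrently in acute myeloid leukaemia. The labels name no further allele, drug or time point, and they do not say whether the libraries came from separate cultures or clones, so p-values reflect the spread among these libraries only, which may be technical. The comparison asked which of these transcripts differ in level between the R882H and the EV libraries.

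Polycomb proteins keep genes silent through a pair of complexes. PRC2 methylates lysine 27 of histone H3, with Ezh2 or Ezh1 as its catalytic subunit, and PRC1 ubiquitinates histone H2A through Rnf2 or Ring1. Methylation of H3 at lysine 9 and removal of acetyl groups also go with silencing, whereas methylation at lysines 4, 36 and 79 goes with transcribed genes. In blood cells several of these genes are recurrently altered in leukaemia, among them Ezh2, Asxl1, Kmt2a, Nsd1 and Setd2. Members were sorted by role into 36 repressive genes, 17 activating genes and the 3 genes of PR-DUB, the complex that removes the PRC1 mark. The sorting is a simplification, since the Kdm4 enzymes act on marks of both kinds, Men1 and Trim28 are scaffolds, Hells is a nucleosome remodeller and Kmt2e has no established catalytic role.

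Libraries held between 5470330 and 5921985 counts. The targeted gene, Dnmt3a, had counts of 264 and 270 in EV and 254 and 239 in R882H, but a 3′ tag need not lie in a transgene, so this does not check the labels. All 11 myeloid progenitor markers had counts in all 4 libraries, and they summed to 2886 and 2933 CPM (counts scaled to library size) in EV and 4535 and 4651 CPM in R882H. Of these, 3 rose (Mpo, Kit and Ctsg) and 7 were not called, among them Ptprc, Spi1 and Cd34. Hoxb8 itself fell, with 25 and 44 counts in EV and 15 and 4 in R882H. These low counts need not include any introduced copy of Hoxb8. Mpo had 166 and 198 counts in EV and 7250 and 7237 in R882H. The groups also differed in ways that the labels do not describe. The 4 Y-linked genes examined summed to 0.367 and 0.706 CPM in EV against 18.4 and 15.3 in R882H, while Xist had 1438 to 1880 counts in every library. The 7 B lineage markers summed to 225 to 240.2 CPM in EV and 849.9 to 915 CPM in R882H, the 5 mast cell and basophil markers to 42.2 and 44.1 CPM in EV and 373.96 and 394 CPM in R882H, and the 4 megakaryocyte markers to 870 and 1055 CPM in EV and 16.1 and 22.3 CPM in R882H. Most of the megakaryocyte sum was Pf4, with 5635 and 4781 counts in EV and 90 and 60 in R882H, whereas Itga2b of the same list rose, with 11 and 15 counts in EV and 38 and 32 in R882H (log2 change 1.35 ± 0.38, edgeR adjusted p = 0.00466). Of the B lineage, mast cell and megakaryocyte lists, Fcer1a alone was at 0 in every library. All 4 fibroblast genes were at 0 in every library, and the 5 T lineage genes held at most 0.702 CPM together. These differences run with the groups in every comparison below, and their part in the results was not tested. The labels do not say whether both groups came from 1 parental culture, so in every R882H over EV value an effect of the variant and a difference between parental cultures cannot be told apart. In bulk RNA, fewer cells of a type and less RNA per cell cannot be told apart.

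All 56 members had enough counts to be tested. In R882H cells 11 of them fell and 3 rose, so that 25% were called. This is a lower share than the background, since 38.8% of the 11444 genes tested were called (edgeR quasi-likelihood test, Benjamini-Hochberg adjusted p below 0.05, the meaning of "called", "rose" and "fell" throughout). Among all genes, rises and falls were nearly equal, at 19.3% and 19.4%, and among the members they were 5.36% and 19.6%. The median log2 fold change (R882H over EV) was −0.10 over the members and 0.01 over all genes. The median size of the change, whatever its direction, was 0.21 and 0.36. The median level was 48.0 CPM over the members and 27.9 CPM over all genes, and the part of level in these differences was not tested. Only 3 members changed by at least 2-fold, or 5.36%, against 14.1% of all genes: the lysine 4 demethylase gene Kdm5b and the methyltransferase gene Kmt2a fell, and the lysine 9 demethylase gene Kdm3a rose. The members of each library together held 3725 to 4070 CPM, with the range in R882H (3725 to 3760) crossing that in EV (3727 to 4070).

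Of the 36 repressive genes, 1 rose and 7 fell, or 22.2%, with a median log2 fold change of −0.15. Of the 17 activating genes, 2 rose and 4 fell, or 35.3%, with a median of −0.08. Over all genes 38.8% were called, with 19.3% higher and 19.4% lower. The repressive genes had 2.78% higher and 19.4% lower, and the activating genes 11.8% higher and 23.5% lower. Whether the classes differ from each other or from all genes was not tested. Both classes held genes that rose and genes that fell. The 2 R882H libraries lay outside the range of the EV libraries for 31 members, 9 above and 22 below, which is 55.4% against a background of 69.1%.

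**Figure D1:**
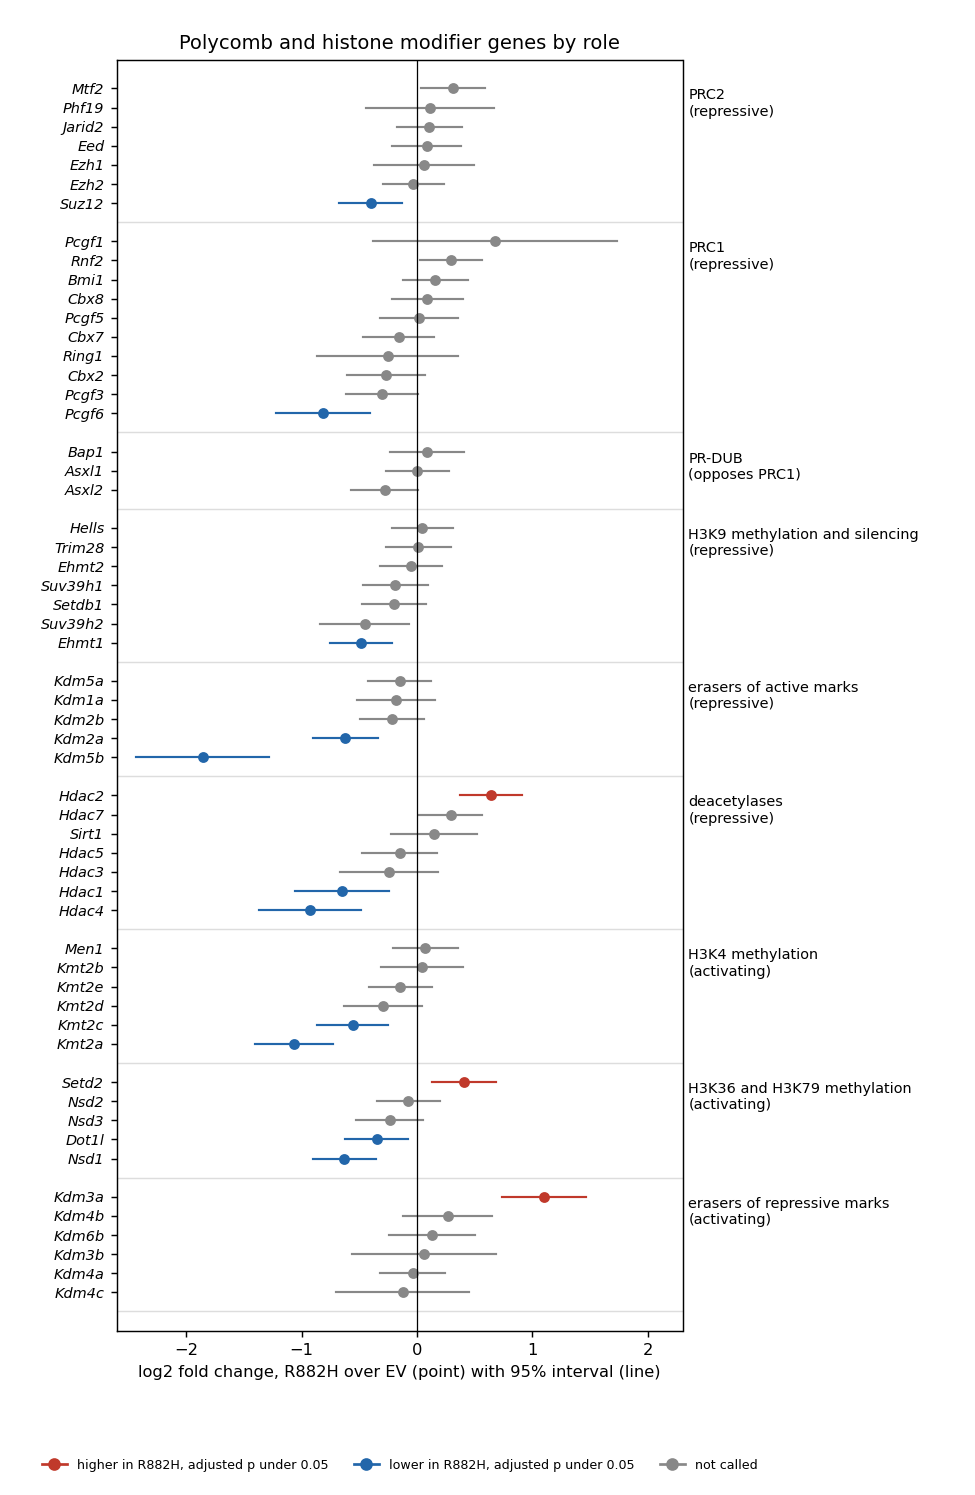
Log2 fold change of each of the 56 members (x axis, R882H over EV) with its 95% interval from the edgeR fit, grouped by role. The 11 members that fell (blue) and the 3 that rose (red) are spread over 8 of the 9 roles, and the 3 PR-DUB genes in grey were not called.

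**Figure D2:**
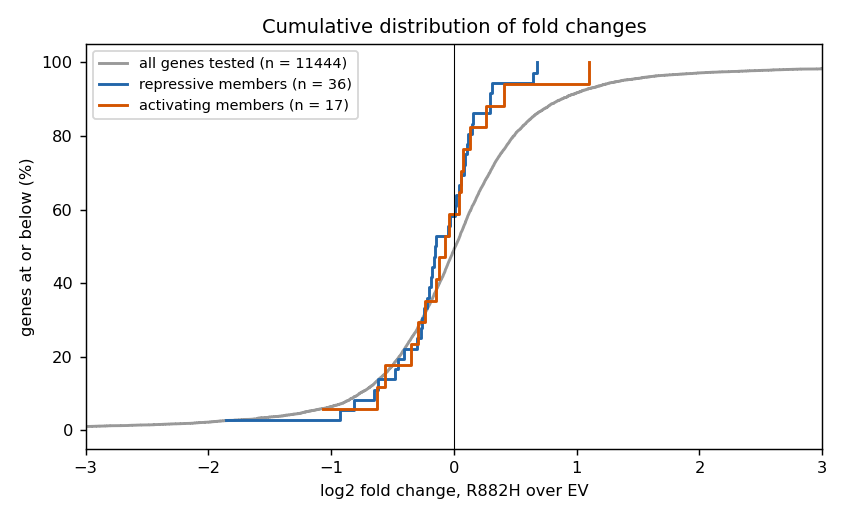
Cumulative percentage of genes (y axis) at or below each log2 fold change (x axis, limited to −3 to 3) for all 11444 genes tested, the 36 repressive members and the 17 activating members. Above 0 lie 15 of the 36 repressive and 7 of the 17 activating members, and the highest member lies at 1.10.

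In PRC2, 1 of 7 subunits was called. Ezh2, the main catalytic subunit, had 577 and 634 counts in EV and 635 and 608 in R882H, or 108.9 ± 4.31 CPM and 106.5 ± 0.339 CPM (mean ± SD, n = 2 per group here and below). Its groups overlapped, and its log2 fold change of −0.03 ± 0.13 (standard error, here and below) had a 95% interval from −0.30 to 0.23. The alternative catalytic subunit Ezh1 had 67, 84, 88 and 77 counts in EV 1, EV 2, R882H 1 and R882H 2, the order used below, and a log2 fold change of 0.06 ± 0.21. It supplied 10.4% to 12.2% of the counts of the pair in every library. Suz12, the scaffold on which the PRC2 core is built, fell: its counts were 383, 387, 320 and 292, equal to 69.3 ± 1.36 CPM in EV against 52.4 ± 1.62 CPM in R882H (log2 change −0.40 ± 0.13, edgeR adjusted p = 0.0173). The R882H libraries lay below both EV libraries. The call ended in DESeq2 (adjusted p = 0.0803), without R882H replicate 1 (edgeR adjusted p = 0.104) and without R882H replicate 2 (edgeR adjusted p = 0.180). The exons of Suz12 overlap Gm26563 on the other strand, which had 11, 11, 9 and 11 counts. Eed, the subunit that reads the mark PRC2 makes, had 308, 245, 320 and 296 counts and a log2 fold change of 0.08 ± 0.15.

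The accessory subunits of PRC2 help to bring the complex to chromatin. Mtf2, which binds CpG islands, had 404, 352, 521 and 467 counts, so that both R882H libraries exceeded both EV libraries, yet the change of 0.31 ± 0.14 missed the threshold (edgeR adjusted p = 0.0653). It passed without EV replicate 1 (log2 change 0.44, edgeR adjusted p = 0.0192). Its exons overlap those of Tmed5 on the other strand, and because the strand setting of the counting is not given, reads of such pairs cannot be told apart. Jarid2 had 307, 380, 429 and 348 counts, and the less abundant Phf19 had 33, 56, 53 and 48. Their groups overlapped, with log2 fold changes of 0.11 ± 0.14 and 0.11 ± 0.27.

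In PRC1, Pcgf6 fell and the other 9 members were not called. Pcgf6 (ENSMUSG00000025050, mm10 chromosome 19, 47033617 to 47050906) is the PCGF subunit of the PRC1.6 complex, which is known for silencing germline genes. It had 117, 113, 65 and 72 counts, equal to 20.7 ± 1.07 CPM in EV against 11.8 ± 1.25 CPM in R882H. The R882H mean was 56.8% of the EV mean, a log2 change of −0.82 ± 0.20 (edgeR adjusted p = 0.00148). The call held in all 12 alternative analyses, which used other scalings, filters and tools or left out each library in turn. The other PCGF subunits did not pass the test. Bmi1, which is needed for the self-renewal of blood stem cells, had 292, 289, 346 and 335 counts (log2 change 0.16 ± 0.14). Pcgf3 had 236, 256, 209 and 209 counts, below EV in both R882H libraries (−0.30 ± 0.15, edgeR adjusted p = 0.115). Pcgf5 overlapped between groups (0.02 ± 0.17). Pcgf1 had only 5, 11, 16 and 11 counts, so its interval, from −0.38 to 1.73, leaves a wide range of changes undetectable at this depth.

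Of the E3 ligase genes of PRC1, Rnf2 had 488, 520, 703 and 598 counts, or 90.6 ± 1.62 CPM in EV against 111.3 ± 8.95 CPM in R882H. Both R882H libraries were higher, but the change of 0.30 ± 0.13 was not called (edgeR adjusted p = 0.0717). Its paralog Ring1 had 33, 41, 34 and 31 counts (−0.26 ± 0.30), and made up 6.33% and 7.31% of the pair's counts in EV and 4.61% and 4.93% in R882H. The Cbx subunits carry a chromodomain that binds methylated lysine 27. Cbx2 had 183, 193, 177 and 151 counts (−0.27 ± 0.17), Cbx7 had 241, 290, 246 and 252 (−0.16 ± 0.15) and Cbx8 had 229, 225, 240 and 267 (0.09 ± 0.15). None of the 3 was called. In PR-DUB, the deubiquitinase Bap1 (0.09 ± 0.16) and its partners Asxl1 (0.00 ± 0.14) and Asxl2 (−0.28 ± 0.14) were not called either. Asxl2 had 307, 317, 289 and 251 counts, and its interval ran from −0.57 to 0.01.

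Among genes of lysine 9 methylation and silencing, Ehmt1 fell. Ehmt1 and Ehmt2 encode GLP and G9a, which act together as a dimer on lysine 9. Ehmt1 had 589, 668, 457 and 486 counts, equal to 113.0 ± 7.0 CPM in EV against 80.9 ± 6.26 CPM in R882H (log2 change −0.48 ± 0.13, edgeR adjusted p = 0.00395). The call ended without R882H replicate 1 (edgeR adjusted p = 0.141). Ehmt2 had 467, 544, 513 and 510 counts and a log2 fold change of −0.05 ± 0.13. Ehmt1 thus gave 55.8% and 55.1% of the pair's counts in EV and 47.1% and 48.8% in R882H. The enzymes of constitutive heterochromatin were not called. Suv39h2 had 125, 116, 100 and 85 counts, with both R882H libraries below EV (−0.45 ± 0.19, edgeR adjusted p = 0.0557), and the X-linked Suv39h1 had a change of −0.19 ± 0.14. Setdb1, which silences retroelements, had 1270, 1502, 1154 and 1370 counts (−0.20 ± 0.14). Its recruiting scaffold Trim28 was the member with the most counts, 3023 to 3678 per library, with overlapping groups (0.01 ± 0.14, interval −0.27 to 0.29). Hells had 564 to 620 counts in every library (0.04 ± 0.13).

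The demethylases that remove active marks gave the largest fall among the members. Kdm5b (ENSMUSG00000042207, mm10 chromosome 1, 134560171 to 134635285), which removes methyl groups from lysine 4 of H3, had 71 and 78 counts in EV and 26 and 17 in R882H. This was 13.4 ± 0.528 CPM in EV against 3.67 ± 0.966 CPM in R882H, which is a log2 change of −1.86 ± 0.28 (edgeR adjusted p = 2.61e-06). Its paralog Kdm5a had 363, 362, 357 and 330 counts (−0.15 ± 0.13), so that Kdm5a made up 83.6% and 82.3% of the pair's counts in EV and 93.2% and 95.1% in R882H. Kdm2a, which acts on lysine 36, also fell, from 404 and 491 counts to 327 and 284, or 80.4 ± 8.89 CPM to 52.3 ± 3.44 CPM (−0.62 ± 0.14, edgeR adjusted p = 0.000487). Kdm2b, which brings a variant PRC1 to CpG islands, had 863, 1145, 934 and 873 counts (−0.22 ± 0.14). It was called in 1 alternative, without EV replicate 1 (log2 change −0.39, edgeR adjusted p = 0.0178). Kdm1a, the LSD1 demethylase that is a drug target in leukaemia, had 183, 245, 183 and 212 counts (−0.18 ± 0.17).

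Among deacetylases, members of the same class moved apart. Hdac1 and Hdac2 are close paralogs that share the same corepressor complexes. Hdac2 (ENSMUSG00000019777, mm10 chromosome 10, 36974544 to 37001889) rose from 605 and 715 counts to 1080 and 1082, or from 118.6 ± 10.8 CPM to 185.3 ± 6.52 CPM (log2 change 0.64 ± 0.13, edgeR adjusted p = 0.000189). Hdac1 fell from 138 and 105 counts to 91 and 72, or from 21.9 ± 4.79 CPM to 13.9 ± 1.83 CPM (−0.65 ± 0.20, edgeR adjusted p = 0.0103). The Hdac1 call ended in DESeq2 (adjusted p = 0.0816), without EV replicate 1 (log2 change −0.41, edgeR adjusted p = 0.179) and without R882H replicate 2 (edgeR adjusted p = 0.124), whereas the Hdac2 call held in all 12 alternatives. The share of Hdac1 in the pair was 18.6% and 12.8% in EV and 7.77% and 6.24% in R882H. A shift in share follows from the opposite calls of these genes. Exact 95% binomial intervals of the lowest EV share (10.6% to 15.3%) and the highest R882H share (6.30% to 9.46%) did not meet. Those of EV 1 (15.8% to 21.6%) and EV 2 (10.6% to 15.3%) did not meet either, so such a gap does not by itself set the groups apart. These intervals cover counting error only. The summed level of the pair was 136.3 and 144.7 CPM in EV and 195.9 and 202.6 CPM in R882H.

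The class IIa deacetylases shuttle between cytoplasm and nucleus. Hdac4 fell from 89 and 109 counts to 57 and 52, or from 17.8 ± 2.06 CPM to 9.33 ± 0.289 CPM (−0.93 ± 0.22, edgeR adjusted p = 0.000872). Hdac5 had 195, 225, 212 and 185 counts (−0.15 ± 0.16). Hdac7, the form known from lymphocytes, had 784, 828, 967 and 1100 counts and missed the threshold (0.29 ± 0.13, edgeR adjusted p = 0.0807). Its exons overlap those of the heme transporter gene Slc48a1 on the other strand, which had 1268, 1397, 795 and 954 counts. The NCoR-bound Hdac3 (−0.24 ± 0.21) and the NAD-dependent Sirt1 (0.15 ± 0.18) were not called.

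**Figure D3:**
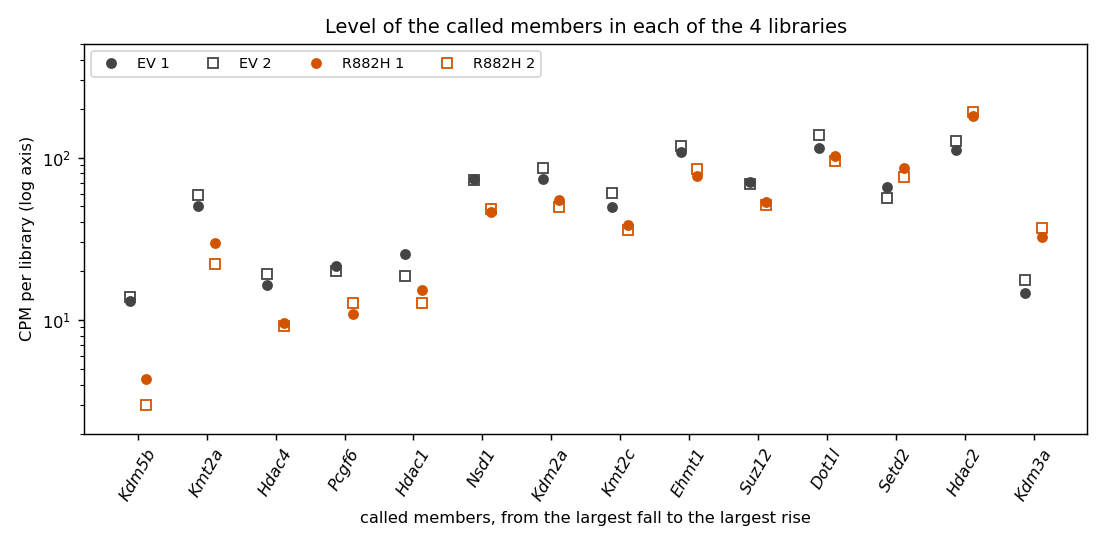
CPM of the 14 called members in each library (log y axis), ordered from the largest fall to the largest rise, with EV in grey and R882H in orange. The groups do not overlap for any of these 14 genes, which their selection by the test makes likely. Of all genes tested, 69.1% do not overlap. The level runs from about the 3.67 CPM mean of Kdm5b to the 185.3 CPM mean of Hdac2 in R882H.

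Of the activating genes, those of lysine 4 methylation fell or were not called. Kmt2a (ENSMUSG00000002028, mm10 chromosome 9, 44803355 to 44881296) encodes MLL1, the methyltransferase that is broken and fused in KMT2A-rearranged leukaemia. It had 276 and 333 counts in EV and 179 and 126 in R882H, or 54.7 ± 5.77 CPM and 26.0 ± 5.54 CPM (log2 change −1.07 ± 0.17, edgeR adjusted p = 3.18e-06). Its exons overlap AC061963.1 on the other strand, which had only 0, 4, 5 and 6 counts. Its paralog Kmt2b had 123, 163, 153 and 156 counts (0.04 ± 0.17), so the share of Kmt2a in the pair was 69.2% and 67.1% in EV and 53.9% and 44.7% in R882H. Kmt2c, an enhancer methyltransferase, fell from 270 and 342 counts to 231 and 205, or from 54.9 ± 7.67 CPM to 37.3 ± 1.88 CPM (−0.56 ± 0.15, edgeR adjusted p = 0.00360). The call ended without EV replicate 2 (edgeR adjusted p = 0.0577) and without R882H replicate 2 (edgeR adjusted p = 0.0651). The related Kmt2d had 208, 247, 230 and 160 counts with overlapping groups (−0.29 ± 0.17). Menin, encoded by Men1, anchors Kmt2a to chromatin, and its gene had 395, 526, 498 and 516 counts (0.07 ± 0.14). Kmt2e was not called (−0.15 ± 0.13).

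Genes of lysine 36 and lysine 79 methylation moved in both directions. Nsd1, which makes the dimethyl mark at lysine 36, fell from 400 and 415 counts to 277 and 276, or from 73.3 ± 0.0725 CPM to 47.4 ± 1.49 CPM (−0.63 ± 0.14, edgeR adjusted p = 0.000338). Its call held in all 12 alternatives. Nsd2 (−0.08 ± 0.14) and Nsd3 (−0.24 ± 0.14) were not called. Setd2, which makes the trimethyl mark on transcribed gene bodies, rose from 359 and 320 counts to 515 and 432, or from 61.2 ± 6.61 CPM to 81.0 ± 7.31 CPM (0.41 ± 0.14, edgeR adjusted p = 0.0181). Both of these marks are known to recruit DNMT3 enzymes. Dot1l, the lysine 79 methyltransferase, fell from 623 and 775 counts to 610 and 541 (−0.35 ± 0.13, edgeR adjusted p = 0.0368). The calls of Setd2 and Dot1l depended on the tool and on single libraries. Setd2 was lost in DESeq2 (adjusted p = 0.0956), without EV replicate 2 (edgeR adjusted p = 0.128) and without R882H replicate 1 (edgeR adjusted p = 0.216). Dot1l was lost in DESeq2 (adjusted p = 0.100), without EV replicate 2 (log2 change −0.22, edgeR adjusted p = 0.207), without R882H replicate 1 (edgeR adjusted p = 0.147) and without R882H replicate 2 (edgeR adjusted p = 0.307).

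Among erasers of repressive marks, Kdm3a rose and the other 5 were not called. Kdm3a (ENSMUSG00000053470, mm10 chromosome 6, 71588972 to 71632990) removes mono- and dimethyl groups from lysine 9 and is a known hypoxia-responsive gene. It had 80 and 100 counts in EV and 194 and 211 in R882H, or 16.2 ± 2.11 CPM and 34.7 ± 3.24 CPM (log2 change 1.10 ± 0.18, edgeR adjusted p = 6.44e-06). Its paralog Kdm3b had 30, 34, 33 and 37 counts (0.06 ± 0.31). Kdm3a made up 72.7% and 74.6% of the pair's counts in EV and 85.5% and 85.1% in R882H. The trimethyl-lysine 9 demethylases Kdm4a (−0.04 ± 0.14), Kdm4b (0.27 ± 0.19) and Kdm4c (−0.12 ± 0.28) were not called, nor was the lysine 27 demethylase Kdm6b, with 100, 144, 152 and 128 counts (0.13 ± 0.18).

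**Figure D4:**
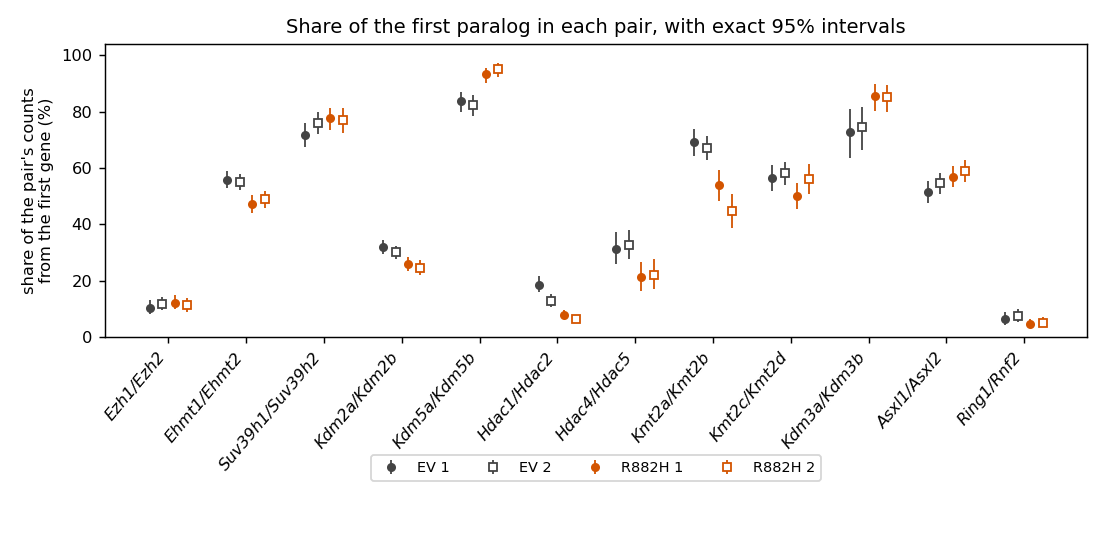
Share of the first-named paralog in the counts of each of 12 pairs (y axis, percent) per library, with exact 95% binomial intervals, EV in grey and R882H in orange. The share of Hdac1 falls from 18.6% and 12.8% to 7.77% and 6.24%, while that of Ezh1 stays between 10.4% and 12.2%.

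The 3 members that changed by at least 2-fold and Hdac2 are shown with the 250 bases upstream of their RefSeq start (build GRCm38.p6, the same assembly as mm10), because DNMT3A methylates cytosine in CpG pairs. The strand given is the one printed, 5′ to 3′, and each CpG is in capitals.
Kdm5b, chr1:134559928-134560177, plus strand: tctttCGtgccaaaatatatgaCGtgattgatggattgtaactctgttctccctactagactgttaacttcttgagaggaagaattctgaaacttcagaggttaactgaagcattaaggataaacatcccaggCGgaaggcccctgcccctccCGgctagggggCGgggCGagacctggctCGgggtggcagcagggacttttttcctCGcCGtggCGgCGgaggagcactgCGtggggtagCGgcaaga
Kmt2a, chr9:44881290-44881539, minus strand: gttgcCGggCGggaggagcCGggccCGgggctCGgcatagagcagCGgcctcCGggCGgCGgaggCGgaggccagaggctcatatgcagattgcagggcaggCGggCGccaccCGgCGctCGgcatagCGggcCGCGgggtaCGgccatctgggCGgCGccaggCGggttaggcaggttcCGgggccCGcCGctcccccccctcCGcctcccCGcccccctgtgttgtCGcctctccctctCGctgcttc
Kdm3a, chr6:71632918-71633167, minus strand: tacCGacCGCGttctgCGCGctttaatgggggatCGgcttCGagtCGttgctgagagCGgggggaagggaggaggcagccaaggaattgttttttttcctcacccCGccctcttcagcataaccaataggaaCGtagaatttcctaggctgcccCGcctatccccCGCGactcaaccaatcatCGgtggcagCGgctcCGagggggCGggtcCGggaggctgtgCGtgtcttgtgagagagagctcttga
Hdac2, chr10:36974294-36974543, plus strand: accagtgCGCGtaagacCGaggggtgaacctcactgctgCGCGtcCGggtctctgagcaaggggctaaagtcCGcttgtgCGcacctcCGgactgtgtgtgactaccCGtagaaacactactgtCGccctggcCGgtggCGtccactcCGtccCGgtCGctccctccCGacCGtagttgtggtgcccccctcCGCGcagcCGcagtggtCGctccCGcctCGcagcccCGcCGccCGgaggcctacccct
These windows held 13 CpG pairs for Kdm5b, 29 for Kmt2a, 20 for Kdm3a and 27 for Hdac2, against a median of 6 over all 32851 windows of the RefSeq table. Of all windows, 31.5% held at least as many as Kdm5b, 17.9% as many as Kdm3a, 8.56% as many as Hdac2 and 6.78% as many as Kmt2a. Of the members, 42 had an entry, with a median of 23 CpG pairs and a range from 0 (Kdm4c) to 48 (Kmt2c). The median was 27 for the 11 called members with an entry and 21 for the uncalled ones. Methylation of these windows was not measured here. The background of all windows was not limited to genes tested here, whereas all members were tested. No median was taken over the windows of the tested genes. Whether the members differ from other tested genes in CpG pairs was therefore not tested.

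Precision set what could be said of the 42 uncalled members. For 30 of them the 95% interval lay inside a 1.5-fold change in either direction, among them Ezh2, Eed, Bmi1, Trim28, Hells, Men1 and Kdm4a. For the other 12, including Pcgf1, Ring1, Kdm3b and Kdm4c, the interval reached a 1.5-fold change. Of the 6 members with a mean under 10 CPM, only Kdm5b was called. Exons of 17 of the 56 members overlap those of another counted gene, in each case on the other strand, and of the called members this holds for Suz12 and Kmt2a. For the uncalled Setdb1, Cbx7 and Kdm2b, the overlapping genes Cers2, Apobec3 and Rnf34 had more counts than the member in every library. In all, 8 of the 14 calls held in every alternative analysis that could test the gene: Pcgf6, Kdm2a, Kdm5b, Hdac2, Hdac4, Kmt2a, Nsd1 and Kdm3a.

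**Figure D5:**
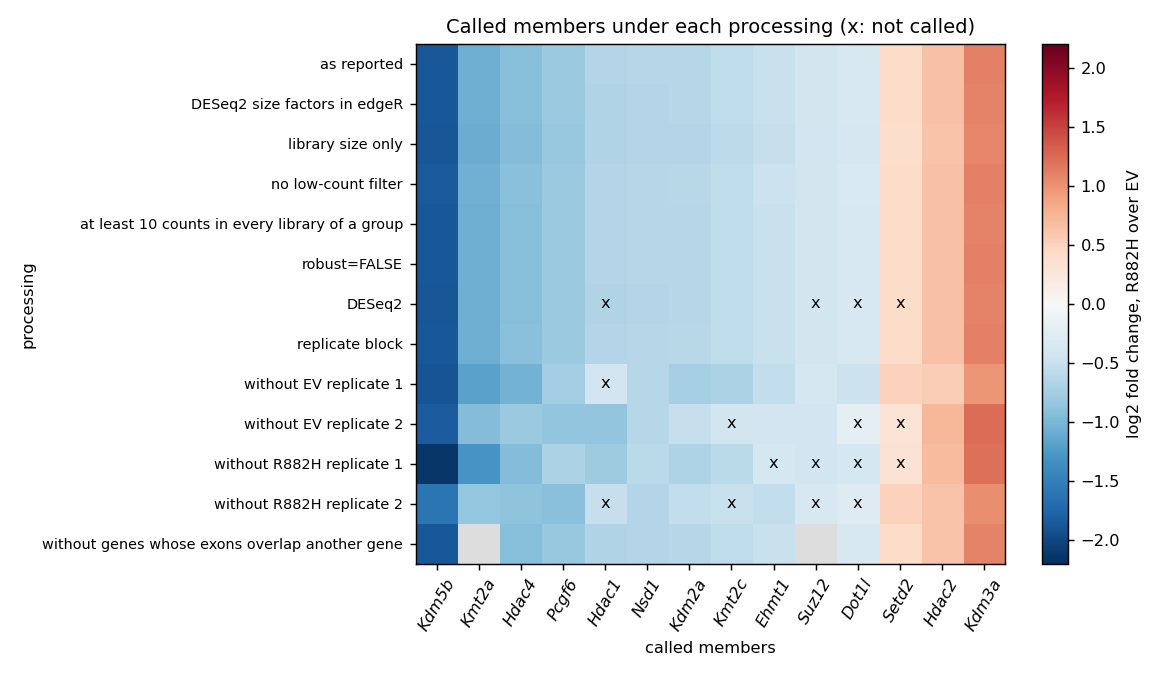
Log2 fold change (colour) of the 14 called members (columns) as reported and in the 12 alternative analyses (rows), with x where the adjusted p was 0.05 or more and grey where the gene was not in the test. No member changes sign, and the x marks fall on Hdac1, Kmt2c, Ehmt1, Suz12, Dot1l and Setd2.

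Of 99 chromatin genes outside the 56, in 7 lists, 94 were tested, 11 rose and 22 fell, or 35.1%, which is near the 38.8% called over all genes, with a median log2 fold change of −0.06. Among 23 further Polycomb subunits, 2 rose and 6 fell, or 34.8%. Cbx6, a chromodomain subunit of PRC1, rose from 304 and 270 counts to 802 and 661 (log2 change 1.28 ± 0.14), and Sfmbt2 rose from 7 and 9 to 46 and 54 (2.56 ± 0.39). The PRC1-associated genes Scmh1 (−1.01 ± 0.14), Bcorl1 (−1.60 ± 0.20) and Sfmbt1 (−0.81 ± 0.21) and the PRC2 cofactor gene Epop (−0.71 ± 0.15) fell. Among 21 tested deacetylases and corepressors, 3 rose and 7 fell, or 47.6%. Chd3 (−1.02 ± 0.13) and Mta3 (−1.61 ± 0.18), subunits of the NuRD complex that also holds Hdac1 and Hdac2, fell. Of the same complex, Chd4 also fell (−0.63 ± 0.13), whereas Mta1 (0.01 ± 0.13) and Mta2 (−0.02 ± 0.13) were not called. Hdac9 fell (−1.02 ± 0.18), while Sirt3 (0.93 ± 0.15), Sirt7 (0.70 ± 0.13) and the X-linked Hdac8 (2.24 ± 0.39) rose. Hdac8 had 6, 14, 40 and 60 counts.

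Among 13 further subunits of the lysine 4 methyltransferase complexes, 15.4% were called: Cxxc1 rose (0.64 ± 0.14) and Hcfc1 fell (−0.52 ± 0.14). Of 10 other histone methyltransferase genes, 3 rose and 4 fell, or 70%. Over all genes 38.8% were called, and whether a list differs from that share was not tested. The lysine 20 enzymes divided, with Kmt5a lower (−0.65 ± 0.13) and Kmt5c higher (0.60 ± 0.16). Smyd3 rose (0.70 ± 0.17), and Setd7 (−0.68 ± 0.15), Smyd5 (−0.82 ± 0.19) and Ash1l (−0.51 ± 0.19) fell. Of 7 tested further demethylases, the X-linked Kdm5c fell (−0.43 ± 0.15). Its Y-linked counterpart Kdm5d, which was not tested, had 1, 2, 7 and 7 counts, and Uty, the counterpart of Kdm6a, had 0, 0, 12 and 10. Of 8 readers of heterochromatin, L3mbtl3 rose (0.59 ± 0.22). Exons of Sirt3, Sirt7, Setd7 and Ash1l overlap those of Ric8a and Psmd13, Mafg, 5031434O11Rik and Dap3.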

How the data were processed

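RNA of 4 mouse Hoxb8 cell libraries (2 EV, 2 R882H) was sequenced after 3′ tag preparation, per the labels' protocols. The authors deposited raw counts per Ensembl gene, 1 column per library. Per the submitters' processing notes, the tools were HISAT2 2.0.4, Subread 2.0.0 with featureCounts, cutadapt 1.14, limma 3.48.3, edgeR 3.34.0 and bcl2fastq 2.17.1.14, with build mm10. Their settings, the annotation and the strand setting were not given in the sources used here.

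From these counts, edgeR 4.0.16 in R 4.3.3 was run with filterByExpr, TMM factors, robust glmQLFit and glmQLFTest, adjusted over all 11444 tested genes. CPM use TMM-scaled totals of the tested genes. Standard errors divide the absolute log2 change by the root of F, and 95% intervals use the t distribution of the fit. Symbols were matched for 52403 of 52636 gene lines, and GENCODE M21 (GRCm38) gave positions and exon overlaps with genes of at least 10 counts. Alternatives used DESeq2 1.42.0, other scalings and filters, and fewer libraries. In simulated counts for the same 11444 genes, changes of 1.5-fold were recovered for 36% of genes, of 2-fold for 80% and of 4-fold for all 50, and 9 of 167 calls were false. The simulation changed only 50 genes at each fold and gave all genes a common dispersion. In the data 38.8% of genes were called, so these rates need not hold for the comparison reported here. Members, roles, lists and paralog pairs were chosen with earlier results of these data known. All members are named, and of each further list at most the 6 called genes with the smallest p, besides Chd4 and some genes that were not called or not tested. Paralog pairs were compared as shares of counts, without a test.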

Additional observations from a re-analysis of the deposited data

How the results depend on the processing

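Calls among the members were stable to scaling and filtering and depended on the tool and on single libraries. With DESeq2 size factors in edgeR, library size only, no low-count filter, a minimum of 10 counts per library in either group and robust=FALSE, 3 members rose and 11 fell as reported, and with the replicate block the counts were also 3 and 11, with 4425 genes called in all. Same-numbered libraries did not deviate together (correlation 0.0039), so the numbers were not taken as pairs. DESeq2 called 2918 genes instead of 4435 (25.5% instead of 38.8%) and 17.9% of members instead of 25%. It called 2 members higher instead of 3, 8 lower instead of 11, 5 repressive members lower instead of 7, 3 activating members lower instead of 4 and 1 activating member higher instead of 2. Leaving out 1 library at a time gave 2954 (without R882H replicate 1) to 4233 genes, 2 to 4 members higher, 7 (without R882H replicate 2) to 11 members lower, 1 to 2 repressive members higher, 1 to 2 activating members higher and 2 (without EV replicate 2 or R882H replicate 2) to 4 activating members lower. The cause of these shifts was not tested, and the runs that left out a library also had fewer libraries. With 1 library left in a group, that library is assumed to vary like the others. None of the 14 called members changed sign, 19 of the 56 members did in at least 1 alternative, all of them uncalled, and 2 uncalled members, Mtf2 and Kdm2b, were called in 1 alternative each. Without genes whose exons overlap another gene, 39 members were tested, 3 rose and 9 fell, or 30.8%, against 39.5% of the 7943 genes tested. For the other chromatin genes, whose alternatives were added after seeing the data, between 24 and 38 were called against 33 as reported.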

Other observations

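Histone acetyltransferase genes, which write the mark that deacetylases remove, included 3 that fell and 1 that rose among 12 tested, or 33.3%, near the 38.8% called over all genes. Ep300 had 281 and 338 counts in EV and 195 and 185 in R882H, a log2 change of −0.77 ± 0.15, and its paralog Crebbp had 360, 479, 277 and 223 counts (−0.82 ± 0.15). Kat2a fell (−0.72 ± 0.19) and Kat8 rose (0.52 ± 0.18). For all 3 that fell, both R882H libraries lay below both EV libraries, which their selection by the test makes likely. The same held for 33.9% of all genes tested.

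Of 13 genes listed as Polycomb-repressed, 4 had enough counts to be tested and 7 had no count in any library. Listing does not mean silence here, since Hmga2 and Igf2bp3 had means of 90.8 and 113.1 CPM in EV. Of the 4, 2 rose, none fell and 2 were not called, Igf2bp3 (−0.19 ± 0.13) and Hoxb4 (0.36 ± 0.27). The called share was 50%, against 38.8% over all genes, but it rests on 4 genes. Cdkn2a, the cell cycle inhibitor locus, had 0 and 2 counts in EV and 69 and 64 in R882H, and Hmga2 rose from 450 and 561 counts to 856 and 732 (0.58 ± 0.14). Of 10 genes known as targets of KMT2A, menin and DOT1L, 7 were tested, of which 2 rose, 1 fell and 4 were not called. The called share was 42.9%, near the 38.8% over all genes. Pbx3 fell from 622 and 745 counts to 98 and 121 (−2.71 ± 0.16), while Mef2c (1.19 ± 0.14) and Flt3 (0.65 ± 0.14) rose. Not called were Meis1 (−0.05 ± 0.16), Cdk6 (−0.17 ± 0.15), Eya1 (−0.29 ± 0.16) and Jmjd1c (−0.10 ± 0.16). The 3 that were not tested, Hoxa7, Hoxa9 and Hoxa10, had at most 1 count in any library. Exons of Hmga2 and Kat8 overlap those of 1700006J14Rik and Prss8. Whether these values follow the levels of any member was not tested.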
